A study of Mus musculus with 24 samples.

Results

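C-type lectin receptors are surface proteins of myeloid cells that bind sugars and lipids of microbes and of the body's own glycoproteins. The 9 transcripts described here are Clec4e, Clec4d, Clec4n, Clec4b1, Clec7a, Clec4a2, Clec10a, Mgl2 and Mrc1. They are 9 of the 12767 genes in the deposited table, and all of them had mean values high enough to be tested. They were chosen by symbol and selected on measured values, a higher Clec4e in LGG-fed knockout mice and a lower Mrc1 and Mgl2 in LGG-fed wild-type mice, LGG being an oral bacterium. Values of LGG-fed against IgG-treated mice, and of knockout against wild-type mice under LGG, are therefore given as a description with no test.

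Bulk RNA sequencing was done on cells purified with CD11c beads, an integrin-based enrichment for dendritic cells, from mesenteric lymph nodes of mice carrying MC38 tumours, a mouse colon carcinoma line. Mice were Myd88 knockout or wild type (WT), both on C57BL/6, labelled female and aged 6 to 8 weeks. Myd88 is the adaptor that most Toll-like receptors and the interleukin-1 receptor family signal through. All mice had 1000000 MC38 cells injected under the skin, and treatment began 7 to 10 days later, at an average tumour size of 100 mm3. Each genotype had 4 treatments, with 3 libraries in each of the 8 groups: the combination of anti-PD-1 antibody and live Lactobacillus rhamnosus GG (LGG) by mouth, LGG, anti-PD-1 antibody, and IgG control antibody. Antibodies were given into the peritoneum at 200 µg per mouse 2 times a week for 2 to 3 weeks. Anti-PD-1 blocks an inhibitory receptor of T cells. Whether LGG-only mice also received IgG is not given in the sources used here. The knockout is described no further than as Myd88 knockout, and the labels do not say whether the 3 libraries of a group came from separate mice, so p-values measure the spread between libraries, which may be technical.

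Reads in listed genes numbered 24531528 to 49272593 per library. Myd88 itself, the check of the genotype labels, stood at 697 to 1837 normalised counts in the 12 libraries labelled knockout and at 1723 to 2232 in the 12 wild-type libraries, and the highest of the knockout libraries (anti-PD-1 replicate 3) was above the lowest of the wild-type ones. The deleted part of the gene is not given in the sources used here, so reads from the rest of it check nothing. The 4 Y-linked genes measured summed to 3060 to 4857 in the libraries labelled knockout and to 0.94 to 10.4 in the wild-type ones, although all mice are labelled female, so genotype and sex cannot be told apart. Every knockout against wild-type difference below carries this limit. In a principal component plot 3 knockout libraries stood apart from their own groups, namely replicates 2 and 3 under anti-PD-1 and replicate 2 under LGG. Itgax, which encodes CD11c, averaged 9828 to 52210 normalised counts over the 8 groups. Flt3 and Zbtb46, which define conventional dendritic cells, averaged 8.09 to 50.4 and 209 to 425 in the knockout groups, against 91.1 to 640 and 406 to 2234 in the wild-type groups. Some dendritic cell lists did not follow these genes. The list for dendritic cells of any kind (8 of 8 genes) summed to 143137 to 343058 in knockout libraries, against 161672 to 195278 in wild-type ones. Each list sum adds normalised counts, so its most abundant genes dominate it. Flt3 and Zbtb46, at the means above, make up little of this one. It also holds Itgax, Dpp4, H2-Ab1, Cd74, Ciita and Bcl11a. How much of the sum comes from dendritic cells was not tested. The list for the cDC2 class (6 of 8) summed to 39894 to 50918 in knockout libraries, against 27403 to 35316 in wild-type ones. Other lists were lower in knockout combination libraries than in wild-type ones. The cDC1 list was 10459.7 to 10792, against 39015 to 41743. The migratory list was 115960.0 to 121581, against 677882 to 736903, and the plasmacytoid list 11809.8 to 13028, against 31237 to 36237. Under IgG the cDC1 and migratory lists were also lower in every knockout library, while the plasmacytoid ranges overlapped. Under anti-PD-1 the knockout and wild-type ranges of these lists overlapped.

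Several of these receptors work as a pathway. Clec4e, Clec4d, Clec4n and Clec4b1 have no signalling motif of their own and pair with Fcer1g, the Fc receptor gamma chain, whose phosphorylated tail recruits the kinase Syk. Clec7a carries such a motif in its own tail, and Syk then signals through Card9, Bcl10 and Malt1 to NF-kB. Clec4a2 carries an inhibitory motif that recruits phosphatases. Clec10a, Mgl2 and Mrc1 are mainly endocytic receptors and are used as markers of alternatively activated macrophages and of some dendritic cells.

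Clec4b1, Clec4a2, Clec4n, Clec4d and Clec4e lie on chromosome 6 within 239.909 kb that hold no other listed gene (mm10 with GENCODE M21 annotation). They are called neighbours among the listed genes only, and genes missing from the deposited table were not placed. Clec4b1 spans chr6:123049962-123071555, Clec4a2 chr6:123106428-123143999, Clec4n chr6:123229843-123247021 and Clec4d chr6:123262111-123275265, all on the plus strand. Clec4e, at chr6:123281789-123289870, is on the minus strand and its 3′ end lies 6.524 kb from the end of Clec4d. Clec7a (chr6:129461591-129472779, minus, annotated there as a polymorphic pseudogene) is 6.17 Mb away. Mgl2 (chr11:70130329-70137550, plus) and Clec10a (chr11:70156197-70170834, plus) are 18.647 kb apart, and Mrc1 is on chromosome 2 (chr2:14229392-14332057, plus).

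Promoter windows of 250 bases before and 50 after the start that RefSeq (GRCm38.p6) gives were read. The windows cover 7 of the 9 genes, with an overlapping pair for Clec7a. They are shown for Clec4e and Clec4d, the neighbours that rose together, and for Mgl2 and Mrc1, which fell most in wild-type mice among the genes of the endocytic group. Capitals mark the PU.1 motif GAGGAA and the C/EBP motif TTGCNNAA, searched on both strands. The windows are chr6:123289822-123290121 minus for Clec4e, chr6:123261857-123262156 plus for Clec4d, chr11:70130107-70130406 plus for Mgl2 and chr2:14229164-14229463 plus for Mrc1.

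Clec4e: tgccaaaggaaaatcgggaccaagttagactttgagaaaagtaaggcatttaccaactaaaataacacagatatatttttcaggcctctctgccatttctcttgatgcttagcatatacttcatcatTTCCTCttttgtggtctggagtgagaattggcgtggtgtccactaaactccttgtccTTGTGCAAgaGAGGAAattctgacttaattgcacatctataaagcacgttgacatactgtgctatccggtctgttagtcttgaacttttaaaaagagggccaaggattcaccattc

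Clec4d: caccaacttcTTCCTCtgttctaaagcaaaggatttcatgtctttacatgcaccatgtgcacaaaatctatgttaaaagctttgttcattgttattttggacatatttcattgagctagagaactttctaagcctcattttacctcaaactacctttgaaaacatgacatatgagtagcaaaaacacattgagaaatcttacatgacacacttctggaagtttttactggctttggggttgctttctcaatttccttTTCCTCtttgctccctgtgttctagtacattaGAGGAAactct

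Mgl2: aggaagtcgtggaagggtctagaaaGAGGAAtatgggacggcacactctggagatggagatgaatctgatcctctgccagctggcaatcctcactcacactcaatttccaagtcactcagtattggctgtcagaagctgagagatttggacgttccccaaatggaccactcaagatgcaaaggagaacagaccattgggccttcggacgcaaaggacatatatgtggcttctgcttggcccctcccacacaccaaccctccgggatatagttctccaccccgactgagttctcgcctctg

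Mrc1: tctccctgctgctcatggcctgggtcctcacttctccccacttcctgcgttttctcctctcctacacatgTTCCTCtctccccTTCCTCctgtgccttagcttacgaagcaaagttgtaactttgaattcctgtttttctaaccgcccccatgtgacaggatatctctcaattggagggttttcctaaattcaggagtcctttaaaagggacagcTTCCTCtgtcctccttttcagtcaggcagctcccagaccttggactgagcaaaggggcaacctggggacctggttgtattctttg

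PU.1 is a master factor of myeloid genes, and GAGGAA was found in the windows of 6 of the 7 genes, all but Clec4a2, against 28.3% of 32851 mouse promoter windows. The Clec4a2 window, chr6:123122440-123122739, lies inside the GENCODE span of that gene and not at its GENCODE start. The C/EBP letters were found in 1 of the 7, Clec4e, at position -66 from the start, against 10.8% of all windows. The C/EBP letters in Clec4e do not overlap its GAGGAA matches. A match is a description of the letters, not a binding site.

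**Figure D1:**
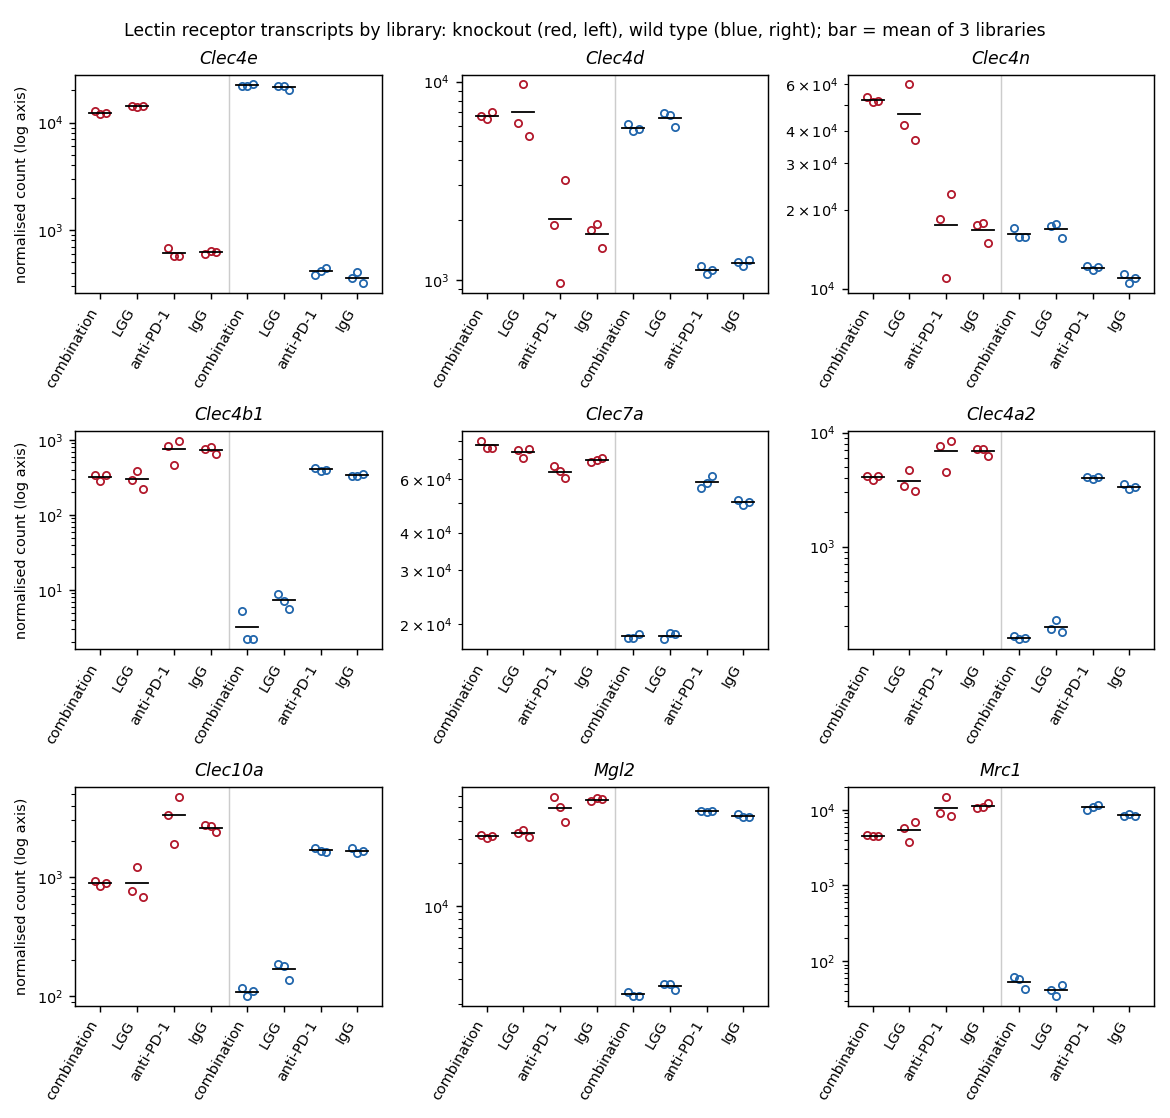
Normalised counts of the 9 lectin receptor genes (vertical log axes, which do not start at 0) in each of 24 libraries (open circles), with knockout groups on the left in red, wild-type groups on the right in blue, and a bar at the mean of each group of 3. Clec4e and Clec4d are high in LGG and combination groups of both genotypes, while Mrc1, Mgl2, Clec10a, Clec4a2 and Clec4b1 are lowest in the wild-type LGG and combination groups.

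The comparison of the combination with anti-PD-1 asks what LGG adds on top of the antibody. Its log2 changes use none of the LGG-only or IgG libraries, but its standard errors and p-values, from the fit of all 24 libraries, do. The choice of the genes covered all 8 groups and was not limited to LGG-only and IgG libraries. It was also made with earlier results of these data known. The p-values are therefore not independent of that choice. This holds most for the traits it names, a higher Clec4e in knockout and a lower Mrc1 and Mgl2 in wild type. Adding LGG raised Clec4e and Clec4d in both genotypes and lowered Mrc1, Mgl2, Clec10a, Clec4a2 and Clec4b1 in both, with larger falls in wild type by the test of the difference. Clec7a, the beta-glucan receptor, rose slightly in knockout and fell in wild type. In knockout mice 4 of the 9 genes rose and 5 fell, where 36.7% of all 12749 genes tested were called, 19.7% higher and 17.0% lower. These calls use a spread pooled over all groups, and only 5 of the 9 remained in a fit of the knockout libraries compared. In wild-type mice 2 rose, 6 fell and 1 was not called, where 56.8% of all genes were called, 27.7% higher and 29.1% lower. The median log2 change of the 9 genes was -0.65 in knockout and -3.93 in wild type, against 0.02 in knockout and 0.01 in wild type over all genes tested. All 9 genes had no overlap between combination and anti-PD-1 libraries in either genotype, which held for 35.8% of all genes in knockout and 77.6% in wild type. With so much of the transcriptome called in each genotype, being called is not particular to these receptors. Less receptor RNA in such bulk samples can come from fewer cells of a type or from less RNA per cell, and these cannot be told apart.

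**Figure D2:**
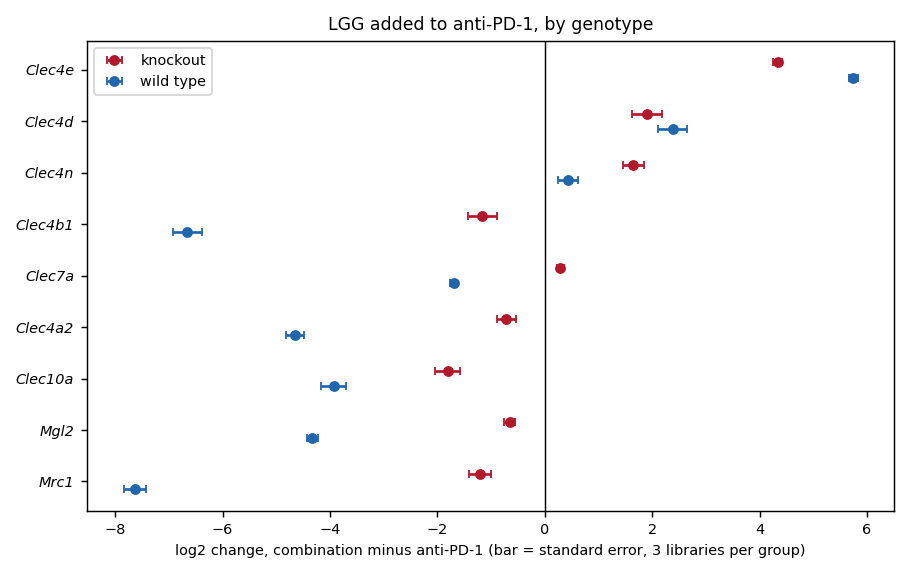
Log2 change of each gene, combination minus anti-PD-1, in knockout (red, upper point) and wild type (blue, lower point), with bars of 1 standard error from the fit over all 24 libraries (3 per group). Clec4e and Clec4d lie to the right of 0 in both genotypes, and Mrc1 lies at -1.20 in knockout and -7.64 in wild type.

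Clec4e encodes Mincle, a receptor for mycobacterial cord factor and other glycolipids, and it rose in both genotypes. It had 12839, 11964 and 12195 normalised counts in the 3 knockout combination libraries, against 685, 570.4 and 578 in knockout anti-PD-1 libraries. In wild type the combination libraries had 21794, 22065 and 22644, against 384, 411 and 445 with anti-PD-1. Every combination library was above every anti-PD-1 library by more than an order of magnitude. The ratio of means was 20.2 in knockout and 53.6 in wild type, with log2 changes of 4.34 ± 0.08 in knockout (standard error, adjusted p = 3.98e-18) and 5.74 ± 0.08 in wild type (adjusted p = 2.09e-20). The difference between these changes, knockout minus wild type, was -1.41 ± 0.12 (adjusted p = 1.28e-08). LGG-only libraries had 14304, 13908 and 14199.7 in knockout, against 597, 644 and 622 in knockout IgG libraries. Wild-type LGG libraries had 21806, 21716 and 20232, against 356, 403 and 319.7 in wild-type IgG libraries. Every LGG library was above every IgG library of its genotype. The summed neutrophil marker list (9 of 10 genes measured), for a cell type that also expresses Clec4e, was 569 to 579 in knockout combination libraries, against 423 to 715 in knockout anti-PD-1 libraries. It was 1402 to 1469 in wild-type combination libraries, against 1395 to 1470 in wild-type anti-PD-1 libraries. The ranges of the compared treatments overlapped in both genotypes, while under the combination every knockout library was below every wild-type one. The part of neutrophils or of other cell types in the Clec4e values was not tested.

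Clec4d, the partner of Mincle also called MCL, rose as well. Counts were 6712, 6462 and 7014 in knockout combination libraries, against 1891, 961 and 3196 in knockout anti-PD-1 libraries. Wild-type combination libraries had 6089.5, 5606 and 5798, against 1171, 1065 and 1124 in wild-type anti-PD-1 libraries. The knockout anti-PD-1 libraries differed 3.32-fold among themselves, the widest spread of any of the 9 genes in any group. Log2 changes were 1.90 ± 0.27 in knockout (adjusted p = 1.91e-05) and 2.38 ± 0.27 in wild type (adjusted p = 3.17e-07). Their difference, -0.48 ± 0.39, was not called (adjusted p = 0.346). It depended on single knockout anti-PD-1 libraries, at -0.93 and called without replicate 2 (adjusted p = 0.00646), and at -0.062 and not called without replicate 3. LGG-only libraries had 6190.4, 9669 and 5309 in knockout, against 1784, 1902 and 1450.2 with IgG. The corresponding wild-type values were 6958, 6758 and 5873 with LGG, against 1237, 1179.9 and 1252 with IgG. With LGG alone the knockout and wild-type ranges overlapped.

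Clec4n encodes Dectin-2, a receptor for fungal mannans. It rose in knockout, by more than in wild type: the difference between the changes was 1.22 ± 0.27 (adjusted p = 0.00127). Knockout combination libraries had 53682, 51521 and 51975, against 18403, 10984 and 23038 in knockout anti-PD-1 libraries. In wild type the combination gave 17019.9, 15778 and 15787, against 12219, 11791 and 12081 with anti-PD-1. The knockout change was 1.65 ± 0.19 (adjusted p = 1.27e-06). The wild-type change of 0.43 ± 0.19 missed the threshold in the main test (adjusted p = 0.0618) although the libraries did not overlap. It passed at 0.0357 to 0.0474 under another scaling and under both count models. In a fit of only the libraries compared it passed at 3.84e-06, where 9655 of all genes were called, against 7247. LGG-only values were 41965, 60003 and 36695 in knockout, against 17421, 17857 and 14978 with IgG. They were 17297, 17701 and 15538 in wild type, against 11319.6, 10479 and 11001 with IgG.

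Clec4b1 encodes DCAR, an Fcer1g-linked receptor in the mouse, and was, per kb of exon, the least abundant of the 9 genes in wild-type combination libraries. Its counts were 345, 286 and 339.6 in knockout combination libraries, against 841, 459 and 977 with anti-PD-1. Wild-type combination libraries had 5.25, 2.25 and 2.19, against 423, 389 and 401 with anti-PD-1. The wild-type combination values rest on 9 reads in all (5, 2 and 2), against 1407 reads in the anti-PD-1 libraries, so the size of that fall is imprecise. The log2 change was -1.16 ± 0.27 in knockout (adjusted p = 0.00202) and -6.66 ± 0.27 in wild type (adjusted p = 4.6e-14). A fit of only the libraries compared did not call the knockout fall (adjusted p = 0.0614). With a pseudocount of 8 the wild-type change was -5.21. The difference between genotypes was 5.49 ± 0.38 (adjusted p = 7.92e-10). With LGG alone, knockout libraries had 289.6, 390.3 and 222, against 746, 799 and 657 with IgG. With LGG alone, wild-type libraries had 8.92, 7.2 and 5.64, against 331, 332 and 351 with IgG. Of the distinct 50-base stretches of the Clec4b1 transcripts 8.685% also occur in Clec4a2, so part of its reads could be assigned to either.

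Clec7a, Dectin-1, moved in opposite directions. It stood at 80469.9, 75946 and 76331 in knockout combination libraries, against 66531, 64015 and 60356 in knockout anti-PD-1 libraries. Wild-type values were 17998, 17994 and 18455 with the combination, against 56233, 58526 and 61619 with anti-PD-1. All knockout combination libraries were above, and all wild-type combination libraries were below, their anti-PD-1 counterparts. The knockout rise was 0.29 ± 0.07 (adjusted p = 0.00242), the wild-type fall -1.69 ± 0.07 (adjusted p = 3.69e-14) and their difference 1.98 ± 0.10 (adjusted p = 3.97e-12). Fitting only the libraries compared did not call the knockout rise (adjusted p = 0.313). The LGG-only libraries had 74743, 70749 and 75711 in knockout, against 68427, 69436 and 70648 with IgG. In wild type they had 17748, 18613 and 18440.3, against 51253, 49336 and 50604 with IgG.

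Clec4a2, which encodes the inhibitory receptor DCIR, fell in both genotypes. Knockout combination libraries had 4162, 3806 and 4143, against 7552, 4530.4 and 8494 in knockout anti-PD-1 libraries. In wild type the values were 165, 153 and 157 with the combination, against 4064, 3889.9 and 4069.8 with anti-PD-1. The changes were -0.72 ± 0.17 in knockout (adjusted p = 0.00311) and -4.65 ± 0.17 in wild type (adjusted p = 1.58e-14), a difference of 3.94 ± 0.24 (adjusted p = 1.87e-10). The knockout fall of Clec4a2 was not called when only the libraries compared were fitted (adjusted p = 0.134). LGG alone gave 3424, 4734 and 3055 in knockout, against 7133, 7140.1 and 6269 with IgG. LGG alone in wild type gave 191, 224 and 177, against 3520.3, 3200.0 and 3359.5 with IgG. Its transcripts share 6.151% of their 50-base stretches with Clec4a4 and Clec4b1.

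The 5 genes that are neighbours on chromosome 6 among the listed genes divided by position. Clec4b1 and Clec4a2, at one end, fell in both genotypes, and Clec4d and Clec4e, at the other end, rose in both. By the main test Clec4n, between them, was called higher in knockout and not called in wild type. This order was seen after the values were known and has no test.

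**Figure D3:**
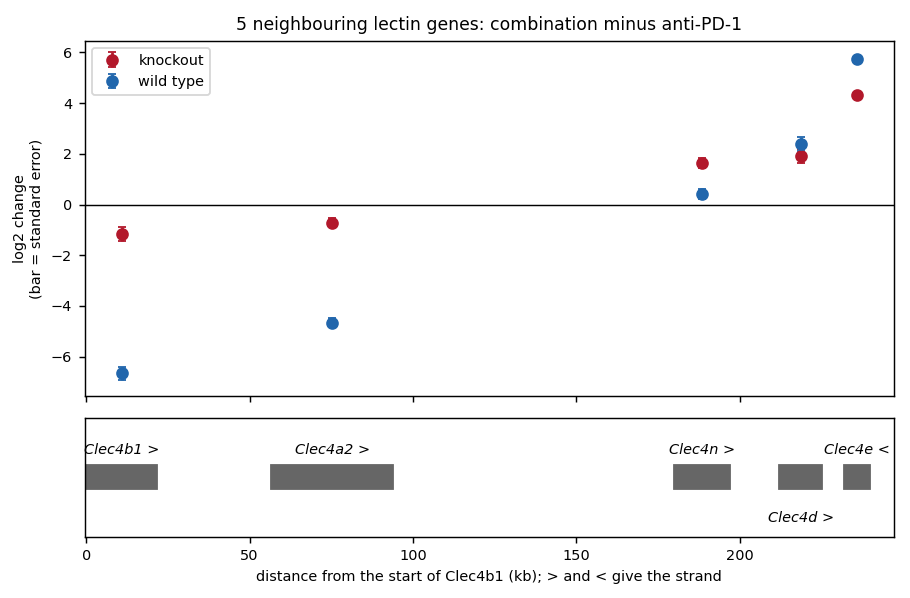
Log2 change, combination minus anti-PD-1, of the 5 neighbouring genes (upper panel, knockout in red and wild type in blue, bars of 1 standard error, 3 libraries per group) against distance from the start of Clec4b1 in kb, with the genes drawn to scale in the lower panel. The values run from -1.16 in knockout and -6.66 in wild type at Clec4b1 to 4.34 in knockout and 5.74 in wild type at Clec4e.

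Mrc1, the mannose receptor CD206, had the largest wild-type fall of the 9 genes. Its counts were 4589, 4509 and 4466 in knockout combination libraries, against 9012, 14844 and 8356 with anti-PD-1. Wild-type combination libraries had 60.9, 57.3 and 42.8, against 9906, 10741 and 11704 with anti-PD-1. The wild-type mean was 201-fold lower and the knockout mean 2.37-fold lower with the combination. Log2 changes were -1.20 ± 0.21 in knockout (adjusted p = 0.000135) and -7.64 ± 0.21 in wild type (adjusted p = 1.14e-16), and their difference was 6.44 ± 0.29 (adjusted p = 1.85e-12). After LGG alone Mrc1 stood at 5764, 3718 and 6929 in knockout, against 10738, 10944 and 12463 with IgG. After LGG alone in wild type it stood at 41.2, 35 and 48.9, against 8297, 8840.1 and 8399.9 with IgG.

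Mgl2 and Clec10a are a pair of related receptors for galactose-type sugars, encoded side by side, and both fell. Mgl2 had 32056, 30380.1 and 31146 in knockout combination libraries, against 59477, 50480.2 and 39396 with anti-PD-1. In wild type Mgl2 had 2435, 2300.3 and 2297 with the combination, against 47438, 46114 and 47469.7 with anti-PD-1. The lowest anti-PD-1 library of either genotype was above every combination library of that genotype. Mgl2 had log2 changes of -0.65 ± 0.10 in knockout (adjusted p = 4.81e-05) and -4.33 ± 0.10 in wild type (adjusted p = 1.35e-17), and the difference was 3.67 ± 0.14 (adjusted p = 2.18e-13). The knockout fall of Mgl2 was not called in a fit of only the libraries compared (adjusted p = 0.0961). LGG-only Mgl2 values were 32949, 34552 and 30693 in knockout, against 55587, 58179 and 57069.8 with IgG. They were 2767, 2789 and 2501 in wild type, against 44619.8, 42736 and 42802 with IgG.

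Clec10a had 939, 847 and 887 in knockout combination libraries, against 3327, 1918 and 4736 with anti-PD-1. Wild-type Clec10a stood at 118, 101 and 109.7 with the combination, against 1770.2, 1653 and 1631 with anti-PD-1. Log2 changes were -1.81 ± 0.23 in knockout (adjusted p = 4.91e-06) and -3.93 ± 0.23 in wild type (adjusted p = 1.79e-11), with a difference of 2.13 ± 0.33 (adjusted p = 3.5e-05). Among the 5 genes that fell in both genotypes, Clec10a had the smallest such difference. With LGG only, Clec10a had 773, 1222 and 683 in knockout, against 2759.7, 2685 and 2382 with IgG. The wild-type values were 187, 181 and 137 with LGG, against 1753, 1611 and 1657 with IgG. Of the 50-base stretches of Clec10a 8.488% also occur in Mgl2, and 12.7% of those of Mgl2 occur in Clec10a or Colec12, so their counts are not fully separate.

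Over all 9 genes, the difference between genotypes in what LGG added (knockout minus wild type) was positive in 7, negative in 1 and not called in 1, where 37.7% of all genes were called, 20.5% positive and 17.2% negative. Its median over the 9 genes was 2.13, against 0.03 over all genes. Leaving out the 3 libraries that stand apart leaves knockout anti-PD-1 with 1 library, replicate 1, which is then assumed to vary like the other groups. Against that library the knockout changes had the same directions, from -1.90 for Clec10a to 4.17 for Clec4e, and no call is drawn from it. Fitted on the 6 knockout libraries alone, 5 of the 9 were called: Clec7a (adjusted p = 0.313), Clec4a2 (0.134), Mgl2 (0.0961) and Clec4b1 (0.0614) were not, and all genes called numbered 1245, against 4673 in the fit of all libraries.

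Summed marker lists of several cell types differed between the combination and anti-PD-1. The macrophage list (9 of 10 genes measured, none at 0 in every library of a group) summed to 36797 to 37289.7 in knockout combination libraries, against 43748 to 67752 in knockout anti-PD-1 libraries. In wild type it summed to 14863 to 15357 with the combination, against 58254 to 61438 with anti-PD-1. The monocyte list (8 of 8) summed to 1145337 to 1199181 in knockout combination libraries, against 1369159 to 2210800.2 with anti-PD-1. Wild-type sums of that list were 98833 to 104485 with the combination, against 847861 to 897161 with anti-PD-1. The migratory dendritic cell list (7 of 8) ran the other way, at 115960.0 to 121581 in knockout combination libraries, against 38069 to 130397 with anti-PD-1. In wild type it was 677882 to 736903 with the combination, against 61828 to 66234 with anti-PD-1. The cDC1 list (8 of 8) was 10459.7 to 10792 in knockout combination libraries, against 10793 to 19745 with anti-PD-1, and 39015 to 41743 in wild-type combination libraries, against 12328 to 12688 with anti-PD-1. The plasmacytoid dendritic cell list (6 of 8) was 11809.8 to 13028 in knockout combination libraries, against 6425 to 19269 with anti-PD-1, and 31237 to 36237 in wild-type combination libraries, against 8153 to 8887 with anti-PD-1. In wild type both lists were higher with the combination in every library. Genes of the cDC1 list did not all move with its sum. In wild type Clec9a averaged 29.8 with the combination, against 215.6 with anti-PD-1 (-2.83 ± 0.15), whereas Irf8 rose. In knockout Clec9a rose, while the cDC1 ranges all but touched, at most 10792 with the combination and at least 10793 with anti-PD-1. The NK cell list (7 of 8) was 7646 to 8256 in knockout combination libraries, against 2714 to 7682 with anti-PD-1, and 44846 to 47627 in wild-type combination libraries, against 19061 to 20179.6 with anti-PD-1. The T cell list (8 of 8) was 2953 to 3080.1 in knockout combination libraries, against 1234 to 2381 with anti-PD-1, and 13323 to 14375 in wild-type combination libraries, against 9059.9 to 9387 with anti-PD-1. The list for mast cells or basophils (8 of 8) was 1839.9 to 1981 in knockout combination libraries, against 765 to 872 with anti-PD-1, and 6208 to 6522 in wild-type combination libraries, against 3010.2 to 3109.6 with anti-PD-1. The part of these cell types in the receptor changes was not tested.

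Comparing genotypes within a treatment asks what the libraries labelled knockout have in place of the wild-type pattern. Under the combination 7 of the 9 genes were higher in knockout, Clec4e was lower and Clec4d was not called, where 58.1% of all genes were called, 30.4% higher and 27.7% lower. The largest differences were those of Mrc1 at 6.39 ± 0.21 (adjusted p = 1.96e-15), Clec4b1 at 6.33 ± 0.27 (adjusted p = 9.82e-14) and Clec4a2 at 4.66 ± 0.17 (adjusted p = 1.65e-14). Mgl2 at 3.73 ± 0.10, Clec10a at 3.01 ± 0.23, Clec7a at 2.10 ± 0.07 and Clec4n at 1.69 ± 0.19 followed. Clec4e was -0.85 ± 0.08 (adjusted p = 3.24e-08). Clec4d, at 0.21 ± 0.27 (adjusted p = 0.543), passed without the 3 libraries that stand apart (0.0296, where 9583 genes were called, against 7408) and in a fit of the 6 combination libraries (0.000511). All 9 genes had libraries that did not overlap, as did 79.4% of all genes.

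Under IgG, without LGG or anti-PD-1, 7 of the 9 genes were higher in knockout, none was lower and Clec4d and Mrc1 were not called, where 39.0% of all genes were called, 19.1% higher and 20.0% lower. For the 6 genes that LGG lowered in wild type the log2 differences were 0.39 to 1.11, and whether these differ from those under the combination was not tested. Clec4b1 averaged 734 ± 72.1 in knockout and 338 ± 11.6 in wild type (SD, n = 3 each), a log2 difference of 1.11 ± 0.27. Clec4a2 averaged 6847 ± 501 in knockout and 3359.9 ± 160.2 in wild type (1.03 ± 0.17). Clec4e was higher by 0.79 ± 0.08 (adjusted p = 2.43e-07), the opposite direction to its difference under the combination. Clec7a (0.46 ± 0.07), Mgl2 (0.39 ± 0.10), Clec4n (0.61 ± 0.19) and Clec10a (0.64 ± 0.23, adjusted p = 0.035) were also called. Clec10a lost the call when any of 5 of the 6 IgG libraries was left out, with adjusted p of 0.06 to 0.0986, and Clec4n lost it without knockout replicate 2 (0.0562). Clec4d at 0.48 ± 0.27 and Mrc1 at 0.42 ± 0.21 passed without the 3 libraries that stand apart, with adjusted p of 4.38e-05 and 0.00429, where all genes called numbered 8139, against 4977. No gene of the 9 overlapped between genotypes under IgG, as for 66.7% of all genes. Other cell types' markers differed as well: under IgG the T cell list (8 of 8 measured) summed to 991 to 1124 in knockout, against 12186 to 12999 in wild type. The NK cell list (7 of 8) summed to 2731 to 3225 in knockout, against 27174 to 29354 in wild type, and the monocyte list to 1676433 to 2112105 in knockout, against 705130.2 to 728612 in wild type. The macrophage list summed to 44046 to 48149 in knockout, against 62743 to 71828 in wild type, and the part of these cells in the receptor differences was not tested. These IgG libraries are also among those by which the genes were named.

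Under anti-PD-1, 6 of the 9 genes were higher in knockout, none was lower and 3 were not called, where 45.7% of all genes were called, 24.1% higher and 21.7% lower. Clec4e at 0.56 ± 0.08 (adjusted p = 3.45e-05) and Clec4a2 at 0.73 ± 0.17 (adjusted p = 0.00333) had the lowest p-values, followed by Clec10a at 0.89 ± 0.23, Clec4b1 at 0.84 ± 0.27, Clec4d at 0.68 ± 0.27 and Clec4n at 0.47 ± 0.19. Mgl2 (0.06 ± 0.10), Clec7a (0.11 ± 0.07) and Mrc1 (-0.05 ± 0.21) were not called. Libraries did not overlap for 4 of the 9 genes, against 34.4% of all genes. In a fit of the 6 anti-PD-1 libraries alone none of the 9 was called, and 3 were called without wild-type replicate 2 or without knockout replicate 1. When 1 library was left out, the values ran from 0.27 to 1.13 for Clec4d, 0.24 to 0.78 for Clec4n, 0.62 to 1.16 for Clec4b1, 0.55 to 1.00 for Clec4a2 and 0.59 to 1.24 for Clec10a, each lowest without knockout replicate 3 and highest without knockout replicate 2. Clec4d and Clec4n lost their calls in 5 of these 6 fits, all but that without knockout replicate 2, and also with TMM scaling (adjusted p of 0.0555 for Clec4d and 0.0601 for Clec4n). Clec4b1 lost its call without wild-type replicate 2 (adjusted p = 0.0551), without knockout replicate 1 (0.0716) and without knockout replicate 3 (0.113). Over all genes 3307 were called without knockout replicate 3 and 8689 without knockout replicate 2, against 5831. This comparison rests on knockout libraries that differ widely among themselves.

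**Figure D4:**
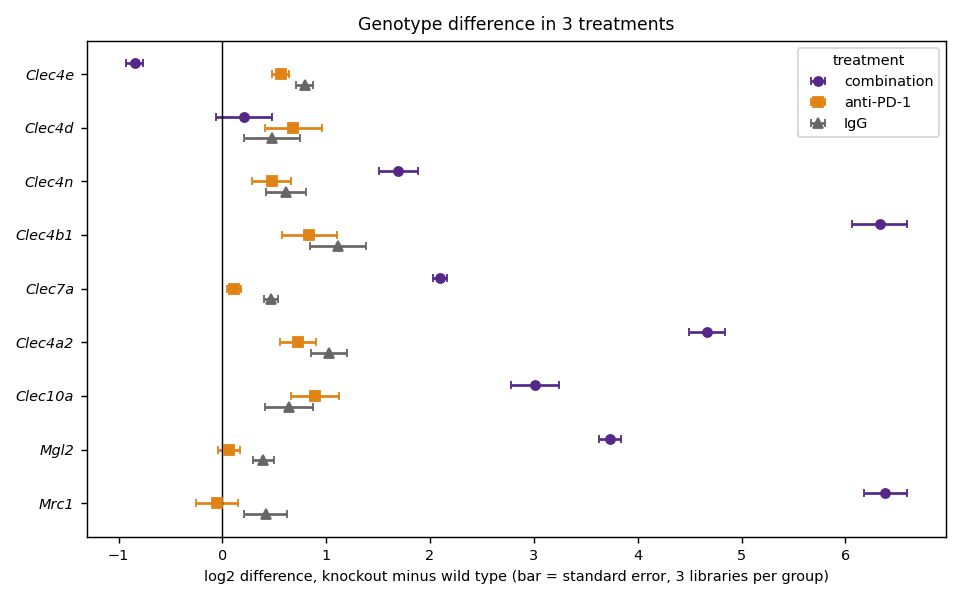
Log2 difference of each gene, knockout minus wild type, under the combination (circles), anti-PD-1 (squares) and IgG (triangles), with bars of 1 standard error (3 libraries per group). Under the combination Mrc1 is at 6.39 and Clec4e at -0.85, whereas under IgG they are at 0.42 and 0.79.

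Knockout against wild type under LGG alone, given as a description, had log2 differences of 6.97 for Mrc1, 5.17 for Clec4b1, 4.22 for Clec4a2, 3.61 for Mgl2 and -0.59 for Clec4e. For Clec4d it was 0.07, and -0.18 without knockout LGG replicate 2.

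No change of these receptors with anti-PD-1 passed the main test. Against IgG none of the 9 genes was called in knockout, where 1.80% of all genes were called, and none in wild type, where 0.0314% were. The knockout count over all genes, 229, depended on single libraries, at 4581 without anti-PD-1 replicate 2, 745 without anti-PD-1 replicate 1 and 74 without IgG replicate 2. Without anti-PD-1 replicate 2, 2 of the 9 genes were called in knockout, both higher, and without replicate 1 Mgl2 was called lower (-0.35, adjusted p = 0.0279). At an unadjusted p below 0.05 there were 0 in knockout, where 1992 of 12749 genes passed, and 2 in wild type, where 1028 did, edgeR called 0 in both, and DESeq2 called 0 in knockout and 1, Clec7a, in wild type. Log2 changes spanned -0.21 (Mgl2) to 0.26 (Clec10a) in knockout and -0.13 (Clec4d) to 0.34 (Mrc1) in wild type. Even so, 7 of the 9 genes had anti-PD-1 and IgG libraries that did not overlap in wild type, as had 33.1% of all genes, and 1 of the 9 in knockout, as had 10.6% of all genes. A fit of the 6 wild-type libraries alone called 4 of the 9, all higher with anti-PD-1, and 1760 of all 12749 genes.

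Adding anti-PD-1 to LGG gave a like result. None of the 9 genes was called in knockout, where 0.275% of all genes were called, and none in wild type, where 0.0628% were. At an unadjusted p below 0.05 there were 1 in knockout, where 879 of 12749 genes passed, and 2 in wild type, where 827 did, and edgeR and DESeq2 called 0 in both. The log2 changes spanned -0.23 (Mrc1) to 0.21 (Clec4n) in knockout and -1.02 (Clec4b1) to 0.35 (Mrc1) in wild type. Libraries did not overlap for 2 of the 9 genes in knockout and 4 in wild type, against 12.4% of all genes in knockout and 25.4% in wild type. Without the 3 libraries that stand apart, 3 of the 9 genes in knockout and 4 in wild type were called, and 1437 genes in knockout and 1095 in wild type over all genes, against 35 in knockout and 8 in wild type with every library. Both sets of comparisons share libraries with those by which the genes were named.

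Levels of different genes can be compared only per length. Per kb of exon, Mgl2 was the most abundant of the 9 in IgG libraries, at a mean of 27194 normalised counts per kb in knockout and 20719 in wild type, followed by Clec7a at 26347 in knockout and 19104 in wild type. Clec4e was the least abundant under IgG, at 125 per kb in knockout and 72.4 in wild type. With the combination Clec4n led in both genotypes, at 36896 in knockout and 11405 in wild type, and Clec4e was at 2484 in knockout and 4465 in wild type, ranks 5 and 3 of the 9. Mrc1 and Clec4b1 were the bottom pair in wild type, at 8.42 and 4.12 per kb.

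Across the 8 groups the order of Clec4e levels was wild-type combination and wild-type LGG, which overlap, then knockout LGG, then knockout combination, then the pair of knockout IgG and knockout anti-PD-1, which overlap, and last wild-type anti-PD-1 and wild-type IgG, which overlap. Clec4d had the same 4 groups on top, which overlapped each with the next. For Clec7a the 4 knockout groups were above all wild-type groups by mean, with knockout anti-PD-1 overlapping wild-type anti-PD-1. Clec4n was highest in knockout combination and LGG libraries, which overlap, and apart from all other groups. For Clec4b1, Clec4a2, Clec10a, Mgl2 and Mrc1 the wild-type LGG and combination groups were the lowest, and were separate from all others.

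Over the 24 libraries the genes whose log2 levels were most like each receptor were found among 10157 genes with a mean of at least 100. These are descriptions of libraries that fall into a few treatment and genotype groups, so many genes reach such values. For Clec4e they were Slc11a2, an iron transporter, and Tlr2, the receptor for bacterial lipoproteins (Pearson r = 0.994 and 0.990). For Clec4b1 they were its neighbour Clec4a2 and Tfec (0.995 and 0.994), and for Clec4a2 they were Tfec and the Fc receptor Fcgr3 (0.997 and 0.996). Mgl2 was most like Arg1, the arginase of alternatively activated macrophages, and Qpct (both 0.998), and Mrc1 most like Ccr2, the monocyte chemokine receptor, and Myo7a (both 0.997). Clec7a was most like Lipa and Tacc2 (0.996 and 0.993), Clec10a most like Acy1 (0.996), Clec4d most like Psmd10 and Dusp13 (0.987 and 0.986) and Clec4n most like Cyb5a and Card19 (0.977 and 0.967).

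Downstream of the receptors, the signalling chain was split. Of its 23 genes, 11 rose and 3 fell in knockout when LGG was added to anti-PD-1, where 36.7% of all genes were called. In wild type 9 rose and 7 fell, where 56.8% of all genes were called. The medians were 0.20 in knockout and 0.11 in wild type, against 0.02 in knockout and 0.01 in wild type over all genes. Fcer1g, the shared adaptor chain, was not called: its mean was 14239.8 with the combination and 21913 with anti-PD-1 in knockout (-0.44 ± 0.31, adjusted p = 0.266), and 13837 with the combination and 9909.8 with anti-PD-1 in wild type (0.48 ± 0.31, adjusted p = 0.193). Syk rose by 0.92 ± 0.14 in knockout and 0.71 ± 0.14 in wild type, while Card9 fell in both, at -0.49 ± 0.13 in knockout and -0.80 ± 0.13 in wild type. Malt1, the protease of the complex that Card9 nucleates, rose by 1.51 ± 0.18 in knockout and 2.05 ± 0.18 in wild type. The NF-kB subunit Relb rose by 1.55 ± 0.16 in knockout and 2.09 ± 0.16 in wild type, and Nfkb1 by 0.92 ± 0.15 in knockout and 1.60 ± 0.15 in wild type. Rel rose by 0.80 ± 0.15 in knockout (adjusted p = 0.000346) and by 1.89 ± 0.15 in wild type (adjusted p = 1.76e-09).

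Of 17 cytokines and other genes known to be induced through these receptors 16 were measured. In knockout 11 rose and 1 fell, where 36.7% of all genes were called, and in wild type 14 rose and 1 fell, where 56.8% were. The median log2 change of the 16 was 0.80 in knockout and 4.91 in wild type, against 0.02 in knockout and 0.01 in wild type over all genes. The knockout minus wild type difference of the change was called negative for 11 of the 16 and positive for 1. Of all genes, 17.2% were called negative and 20.5% positive. Toll-like receptors induce the same genes. Nos2, inducible nitric oxide synthase, averaged 1569.8 in knockout combination libraries and 67.2 with anti-PD-1, a change of 4.53 ± 0.08. In wild type Nos2 averaged 39920.4 with the combination and 170.2 with anti-PD-1 (7.87 ± 0.08). Il1b rose by 1.24 ± 0.12 in knockout and 7.18 ± 0.12 in wild type, and Il12b by 2.31 ± 0.39 in knockout and 7.04 ± 0.39 in wild type. Il10 was not called in knockout at 0.03 ± 0.46 (adjusted p = 0.961) and rose by 6.39 ± 0.46 in wild type. Csf3 had 2, 4 and 5 reads in knockout combination libraries, against 0, 0 and 5 with anti-PD-1. In wild type it had 8325, 6878 and 6949 reads with the combination, against 0 in each anti-PD-1 library, at least 3103-fold higher taking 3 reads per library as the floor. With Csf3 at that bound the wild-type median stayed 4.91.

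Among 28 other C-type lectin receptors of the list 16 were measured. In knockout 7 rose and 3 fell, where 36.7% of all genes were called, and in wild type 4 rose and 9 fell, where 56.8% were. Medians were 0.35 in knockout and -1.25 in wild type, against 0.02 in knockout and 0.01 in wild type over all genes. Clec4a3, a further member of the DCIR family, fell in both, at -1.19 ± 0.17 in knockout and -5.29 ± 0.17 in wild type. Clec12a, an inhibitory receptor for uric acid crystals, fell in both, at -2.04 ± 0.21 in knockout and -3.33 ± 0.21 in wild type. Clec9a, the dead-cell receptor of cross-presenting dendritic cells, rose by 1.07 ± 0.15 in knockout and fell in wild type (-2.83 ± 0.15). Colec12, a scavenger receptor, was not called in knockout (0.36 ± 0.19, adjusted p = 0.146) and fell in wild type (-2.57 ± 0.19). Clec1a was likewise not called in knockout (0.50 ± 0.30, adjusted p = 0.195) and fell in wild type (-2.48 ± 0.30). For all 5 of these the knockout minus wild type difference was positive and called, as for 20.5% of all genes.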

How the data were processed

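The 9 receptors and the gene lists were chosen with earlier results of these data known. Reads were processed with STAR 2.4.0, HTSeq 0.6.1 and DESeq2 against mm10, per the submitters' processing notes, and the role and version of DESeq2 are not given in the sources used here. The deposited table holds, for 12767 genes and 24 libraries, a normalised signal: gene read counts divided by one factor per library. Dividing each column by its smallest step returned whole reads for 100% of values within a tolerance of 0.001, and 24531528 to 49272593 reads per library. Library preparation and strand are not given in the sources used here.

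The main test was limma 3.58.1 (R 4.3.3, trend and robust) on log2(value + 1), so fold changes of low genes are understated, over 12749 genes with a mean of at least 10, with all 24 libraries and 8 group means. It was two-sided, with Benjamini-Hochberg adjustment within each comparison and calls below 0.05. A ± after a log2 change is the standard error. Alternatives were a pseudocount of 8, no filter, TMM scaling, a fit of only the libraries compared, a term for replicate number, leaving out each library, count models on the recovered reads in edgeR 4.0.16 or DESeq2 1.42.0, and leaving out 3 libraries that stand apart. The tests were checked on counts simulated for the wild-type combination and anti-PD-1 groups, with the same spread set for every gene and library. That check therefore could not cover groups of unequal spread, such as the knockout anti-PD-1 libraries. Named genes were all 9 receptors, up to 5 called genes per list with the largest change in either genotype, always Fcer1g, Syk and Card9, and the 2 genes most like each receptor, some of which are not reported here. Positions came from GENCODE M21, matched for 12759 of the 12767 identifiers. Shared 50-base stretches were counted between its transcripts. Xist, a check of sex, was not analysed here.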

Additional observations from a re-analysis of the deposited data

Results flagged for a closer look

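For 8 of the 9 receptors, all but Clec4d, what LGG added to anti-PD-1 differed between knockout and wild type by a test of the difference itself, as did 37.7% of all genes. On the log2 scale, knockout minus wild type, the differences were 6.44 for Mrc1, 5.49 for Clec4b1, 3.94 for Clec4a2, 3.67 for Mgl2, 2.13 for Clec10a, 1.98 for Clec7a, 1.22 for Clec4n and -1.41 for Clec4e.

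Clec7a had log2 changes of opposite sign with anti-PD-1 against IgG, -0.13 in knockout and 0.22 in wild type, and neither passed limma's test (adjusted p = 0.368 in knockout and 0.3 in wild type). It had 66531, 64015 and 60356 normalised counts with anti-PD-1 in knockout, against 68427, 69436 and 70648 with IgG, so all knockout anti-PD-1 libraries were lower. In wild type it had 56233, 58526 and 61619, against 51253, 49336 and 50604 with IgG, so all were higher. The difference between genotypes was not tested.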

How the results depend on the processing

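Counts of called receptors changed in several comparisons. For combination against anti-PD-1 in knockout the count of 9 fell to 5 when only the libraries compared were fitted. For knockout against wild type under anti-PD-1 it was 0 with only the libraries compared, in place of 6, and 3 to 6 when 1 library was left out. For anti-PD-1 against IgG in wild type it was 4 with only the libraries compared, 1 with DESeq2 and 2 without the 3 libraries, in place of 0, and in knockout it was 0 to 2 when 1 library was left out. For combination against LGG it was 3 in knockout and 4 in wild type without the 3 libraries, in place of 0. The cause was not tested.

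Some values changed sign. Under anti-PD-1, the knockout minus wild-type difference was -0.076 to 0.22 for Mgl2 and -0.31 to 0.10 for Mrc1 when 1 library was left out, the lowest Mgl2 value being without knockout replicate 1 and the highest Mrc1 value without knockout replicate 3. With anti-PD-1 against IgG in knockout, Clec10a was -0.044 (without anti-PD-1 replicate 3) to 0.61 (without anti-PD-1 replicate 2, adjusted p = 0.0208), and Mgl2 was -0.35 without anti-PD-1 replicate 1 (adjusted p = 0.0279) to -0.055 and was 0.063 without the 3 libraries, which leaves 1 knockout anti-PD-1 library. Under LGG, the difference for Clec4d was -0.18 without the 3 libraries, and -0.18 (without knockout LGG replicate 2) to 0.25 when 1 library was left out.

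Replicate numbers did not pair the samples: in no comparison did all 3 same-numbered pairs correlate above 0.1. With a replicate block, 4 receptors were called for knockout against wild type under anti-PD-1, in place of 6, with Clec4d (adjusted p = 0.0639) and Clec4n (0.0641) not called.

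Counts over all genes varied beyond 1.5 times in several comparisons. With only the libraries compared they were 1245, against 4673, for combination against anti-PD-1 in knockout, 796, against 5831, for knockout against wild type under anti-PD-1, and 7936, against 4977, under IgG. For anti-PD-1 against IgG in wild type they were 1760 with only the libraries compared, 203 with DESeq2 and 9 with edgeR, against 4. In knockout they were 0 with only the libraries compared, 602 with DESeq2, 1140 without the 3 libraries and 74 (without IgG replicate 2) to 4581 (without anti-PD-1 replicate 2) when 1 library was left out, against 229. Without knockout anti-PD-1 replicate 2 they were also 7544, against 4673, for combination against anti-PD-1 in knockout and 7264, against 4804, for its difference from wild type. For combination against LGG they were 0 with only the libraries compared, 55 with edgeR and 203 with DESeq2, against 35, in knockout, and 145 and 81 with only the libraries compared and DESeq2, against 8, in wild type. When 1 library was left out they were 11 to 47 for combination against LGG in knockout and 0 to 7 in wild type, and 0 to 3 for anti-PD-1 against IgG in wild type. Without the 3 libraries they were 1079 for anti-PD-1 against IgG in wild type, 1437 in knockout and 1095 in wild type for combination against LGG, 8139 for knockout against wild type under IgG, and 7239 for the genotype difference in what LGG added, where 1 knockout anti-PD-1 library is left. Depth limits Clec4b1 in wild-type LGG and combination libraries, at 21 and 9 reads in all.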

Other observations

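Of 12 transcription factors with a known or proposed part in the expression of these receptors, 2 rose, 4 fell and 6 were not called in knockout when LGG was added to anti-PD-1, where 36.7% of all genes were called. In wild type 4 rose, 6 fell and 2 were not called, where 56.8% of all genes were called. Pparg, a nuclear receptor of alternatively activated macrophages, averaged 856 in knockout combination libraries and 1256 with anti-PD-1 (-0.54 ± 0.20, adjusted p = 0.0379). In wild type it averaged 44.4 with the combination and 861 with anti-PD-1 (-4.25 ± 0.20, adjusted p = 3.94e-13). Klf4 fell in both, at -1.24 ± 0.19 in knockout and -2.52 ± 0.19 in wild type. Cebpa was not called in knockout (-0.15 ± 0.09, adjusted p = 0.203) and fell in wild type (-2.38 ± 0.09). Irf8, a factor of dendritic cell development, was not called in knockout (0.11 ± 0.05, adjusted p = 0.11) and rose by 2.77 ± 0.05 in wild type, while Irf4 rose by 0.80 ± 0.07 in knockout and 1.26 ± 0.07 in wild type.

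Within the spread-out knockout groups the receptors did not all follow one library. Of the anti-PD-1 libraries, replicate 3 was the highest and replicate 2 the lowest for Clec4d, Clec4n, Clec4b1, Clec4a2 and Clec10a, whereas Mrc1 was highest in replicate 2, at 14844, and lowest in replicate 3, at 8356. Of the LGG libraries, replicate 2 was the highest for those 5 genes and the lowest for Mrc1, at 3718. Among anti-PD-1 libraries Mgl2 and Clec7a followed neither order: both were highest in replicate 1 and lowest in replicate 3. Among LGG libraries Mgl2 was highest in replicate 2, at 34552, like those 5 genes. Clec7a was lowest in LGG replicate 2, at 70749, like Mrc1, and highest in replicate 3, at 75711. The migratory dendritic cell list summed to 77515, 38069 and 130397 in anti-PD-1 replicates 1, 2 and 3, and to 118380, 201863 and 103992 in LGG replicates 1, 2 and 3. Its part in the spread was not tested. Clec4e and Clec7a did not share this spread. In the anti-PD-1 group the highest library was 1.2 times the lowest for Clec4e and 1.10 times for Clec7a. In the LGG group it was 1.03 times for Clec4e, 1.07 for Clec7a and 1.13 for Mgl2. The library orders given above for Clec7a, and for Mgl2 under LGG, therefore rest on small differences.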
